A study of Mus musculus with 57 samples.

Results

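Sox1+FOXA2- progeny are the descendants of cells that carried the reporter of the neural gene Sox1, but not that of the endoderm gene FoxA2, when they were sorted, and their transcriptome was compared here between D6 and D4 across all genes. The members are the 3 progeny libraries of this gate at D6 and the 3 at D4, 6 of 57 bulk RNA-seq libraries in all (39 from sorted and 18 from replated cells). Every library came from the Sox1-EGFP/FoxA2mCherry mouse ESC line, a clone made by adding mCherry to FOXA2 in Sox1-EGFP cells, in which EGFP takes the place of Sox1 on a single allele. After 2 days in N2B27 medium with 1 uM retinoic acid (RA), 50000 cells of a gate were sorted and replated on gelatin in RA with serum as basal medium. They were harvested 2 days (D4) or 4 days (D6) later without a further sort, about 500 cells per library. D4 and D6 therefore share the gate, the RA dose and the serum medium and differ in the time since replating. The comparison asks how the offspring of Sox1 single-positive cells moved on between 2 and 4 days in this culture. Each group had 3 biological replicates. The p-values for progeny set a change against the spread between replicates, estimated over all 18 progeny libraries and not over the 6 members alone.

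SOX1 is among the earliest transcription factors of the neuroectoderm, and FOXA2 is a transcription factor of the definitive and extraembryonic endoderm and of the floor plate. RA, the active form of vitamin A, acts through nuclear receptors and directs mouse ESCs to neural fates as well as to cells with features of extraembryonic endoderm. Extraembryonic endoderm is set up by the transcription factors GATA4, GATA6, SOX7 and SOX17, takes up nutrients through the receptors cubilin and megalin, and lays down a basement membrane of laminin and collagen IV.

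The 6 libraries held between 10474804 and 81845651 counts. The shallowest were D6 replicate 3 and D4 replicate 1, the latter with 11189529. Mitochondrial genes took 6.76% to 13.4% of counts at D4 and 7.75% to 12.1% at D6, and the 50 most counted genes took 37.6% in D4 replicate 1 and 18.6% to 23.6% in the other libraries. Sox1 itself could not check the gate, since the gene lies wholly inside Sox1ot and has 0 counts in all 57 libraries, as do Sox2 and Tubb3, each of which lies inside another gene. Of the neuroectoderm genes that could be read, Nes (nestin, an intermediate filament of neural progenitors) lay between 10660 and 32870 normalized counts in the 6 libraries and Pax6, a neural transcription factor, between 222 and 540.3. At D6 their means were 531% and 1060% of those in the progeny of Sox1-FOXA2+ cells, while Sox3 reached at most 42.6 and Zic1 at most 21.8 normalized counts in any of the 6. Foxa2 lay at 351, 25.7 and 153 normalized counts at D4 and at 178.5, 181 and 229 at D6, which is 10.5% and 7.28% of its mean in Sox1-FOXA2+ progeny of the same day. Beside sorted cells of the same gate, on the scale of all 57 libraries, Pax6 was low in the D6 progeny (269.5 to 316.9 counts, against 1042 to 2905 in sorted D6 cells and 698 to 4955 at D2) and Nes was high (12290 to 22360, against 1228 to 4816 in sorted D6 cells). Relative to Sox1-FOXA2+ progeny the label of the gate is therefore matched by Nes, Pax6 and Foxa2, while Pax6 lay below the level of the sorted cells, Sox3 and Zic1 were near 0, and Sox1 could not be read.

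Between D4 and D6, 6 of 24025 genes tested rose and 0 fell at an adjusted p under 0.05 (quasi-likelihood test of edgeR, p-values adjusted after Benjamini and Hochberg), which is 0.025% of genes. The 6 were Cubn, Nxf7, Gata4, Srgn, Cpt1a and Lama1, with fitted folds between 5.59 and 13.5, and 3 of them (Cubn, Gata4 and Lama1) belong to the program of extraembryonic endoderm. Without adjustment, 751 genes (3.13%) were higher and 842 (3.5%) lower at p under 0.05, 6.63% in all. Of all genes, 48.4% had a log2 fold change above 0 and 50.7% below 0. All 3 D6 libraries lay above all 3 D4 libraries for 6.39% of genes and below them for 5.2%. Where a gene named below has such separated groups, it is to be read beside these shares. The median log2 fold change over all genes was -0.01. The number of genes called depended on single libraries. It was 1 without D4 replicate 1 (Cubn), 2 without D6 replicate 1 (Cubn and Nxf7), 16 without D4 replicate 3 and 43 without D6 replicate 3. All 6 genes had a positive log2 fold change under each of the 14 alternative settings, between 2.12 and 4.21. In RNA from about 500 cells, a larger share of cells of a type and more RNA per cell cannot be told apart, and this holds for every gene below.

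**Figure D1:**
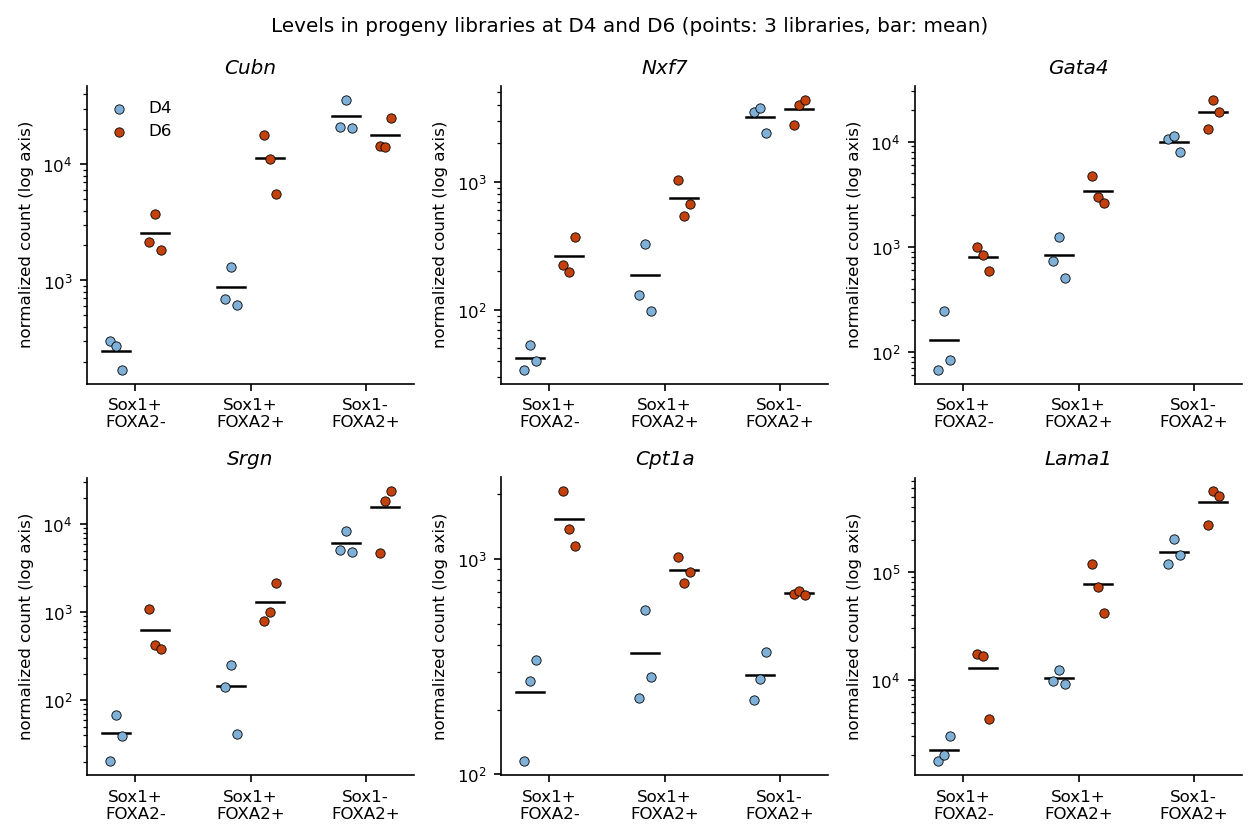
Normalized counts (log axis) of the 6 genes called higher at D6, for the 3 libraries (points) and their mean (bar) at D4 (blue) and D6 (red) in Sox1+FOXA2- progeny, then Sox1+FOXA2+ progeny, then Sox1-FOXA2+ progeny. In Sox1+FOXA2- progeny the 3 D6 libraries lie above the 3 D4 libraries in each panel, for Lama1 from 4355 upward against at most 2998.

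Cubn encodes cubilin, a large endocytic receptor of visceral endoderm, yolk sac and kidney tubule, and lies on the minus strand of chr2:13276338-13491813 (GRCm38, ENSMUSG00000026726.10). It had 304, 274 and 169.7 normalized counts in the 3 D4 libraries and 2153, 3747 and 1828 in the 3 D6 libraries. The lowest D6 library was thus several-fold above the highest D4 library. The log2 fold change was 3.40 (SE 0.412, adjusted p = 0.000342), or 10.5-fold, and Cubn was called under 13 of 14 alternative settings. Of its exon bases, 23.8% lie within another gene (Gm13270), so that its counts may be understated to an unknown degree. The same limit applies to other genes named below, among them Col4a1 (23.7%), Nefm (19.2%), Sox17 (16.8%) and Col4a2 (16.6%). Nxf7, a member of the nuclear RNA export factor family on chrX:135579555-135598777 (minus strand, ENSMUSG00000031410.14), had 33.8, 52.7 and 39.5 normalized counts at D4 and 223, 198 and 373 at D6. The 2 groups were far apart, at low levels on both days (log2 fold change 2.59, SE 0.415, adjusted p = 0.0143). It was called under 9 of the 14 settings.

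Gata4 encodes a zinc finger transcription factor of extraembryonic and gut endoderm and of the heart, and lies on chr14:63198922-63271692 (minus strand, ENSMUSG00000021944.15). Its normalized counts were 67.5, 243 and 83.3 at D4 and 987, 829 and 586 at D6. D4 replicate 2 stood above the other D4 libraries and was still below every D6 library (log2 fold change 2.54, SE 0.410, adjusted p = 0.0143). Lama1, on chr17:67697259-67822647 (plus strand, ENSMUSG00000032796.8), encodes the alpha 1 chain of laminin-111, the first laminin of embryonic basement membranes. It had 1756, 1999 and 2998 normalized counts at D4 and 17360, 16610 and 4355 at D6. The D6 libraries did not overlap with D4, but D6 replicate 3, the shallowest library, lay much nearer to D4 than the other D6 libraries did (log2 fold change 2.48, SE 0.442, adjusted p = 0.0309). Gata4 was called under 9 and Lama1 under 7 of the 14 settings.

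Srgn encodes serglycin, the core protein of a proteoglycan of secretory granules, and lies on chr10:62493833-62527451 (minus strand, ENSMUSG00000020077.14). It rose from 20.3, 68.1 and 39.8 normalized counts at D4 to 1091, 427 and 378.5 at D6. This was the largest fold among the 6 genes, 13.5 (log2 fold change 3.76, SE 0.626, adjusted p = 0.0177), on the lowest D4 levels beside those of Nxf7. Cpt1a, on chr19:3322334-3385733 (plus strand, ENSMUSG00000024900.5), encodes the carnitine palmitoyltransferase that admits long-chain fatty acids to mitochondria for oxidation. Its normalized counts were 115, 272 and 340.1 at D4 and 2064, 1371 and 1146 at D6, so that all D6 libraries lay well above D4 (log2 fold change 2.60, SE 0.440, adjusted p = 0.0177). Srgn was called under 8 and Cpt1a under 6 of the 14 settings.

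The 250 bases before the start of 4 of the 6 genes were read from RefSeq (GRCm38.p6) and searched on both strands for GATA preceded by A or T and followed by A or G, the letters that GATA factors bind, because a GATA factor was among the genes that rose. Of 32851 mouse promoter windows of this length, 26.5% hold at least 1 match. The windows of Cubn, Srgn and Cpt1a held none and that of Nxf7 held 1, which starts 190 bases before the gene's start and is in capitals below. The window of Cubn (chr2:13491877-13492126, minus strand), the most strongly called gene, and that of Nxf7 (chrX:135598782-135599031, minus strand) are shown 5′ to 3′. The matches are letters in a window and were not measured as binding.
Cubn: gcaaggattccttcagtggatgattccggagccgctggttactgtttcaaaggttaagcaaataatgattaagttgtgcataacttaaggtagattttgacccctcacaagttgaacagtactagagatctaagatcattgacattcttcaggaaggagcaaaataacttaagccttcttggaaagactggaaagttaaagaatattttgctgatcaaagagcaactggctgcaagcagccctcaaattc
Nxf7: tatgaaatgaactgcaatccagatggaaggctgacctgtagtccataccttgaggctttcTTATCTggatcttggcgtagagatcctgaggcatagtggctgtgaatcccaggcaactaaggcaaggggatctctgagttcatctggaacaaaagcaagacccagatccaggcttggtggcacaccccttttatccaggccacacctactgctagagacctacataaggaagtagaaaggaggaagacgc

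**Figure D2:**
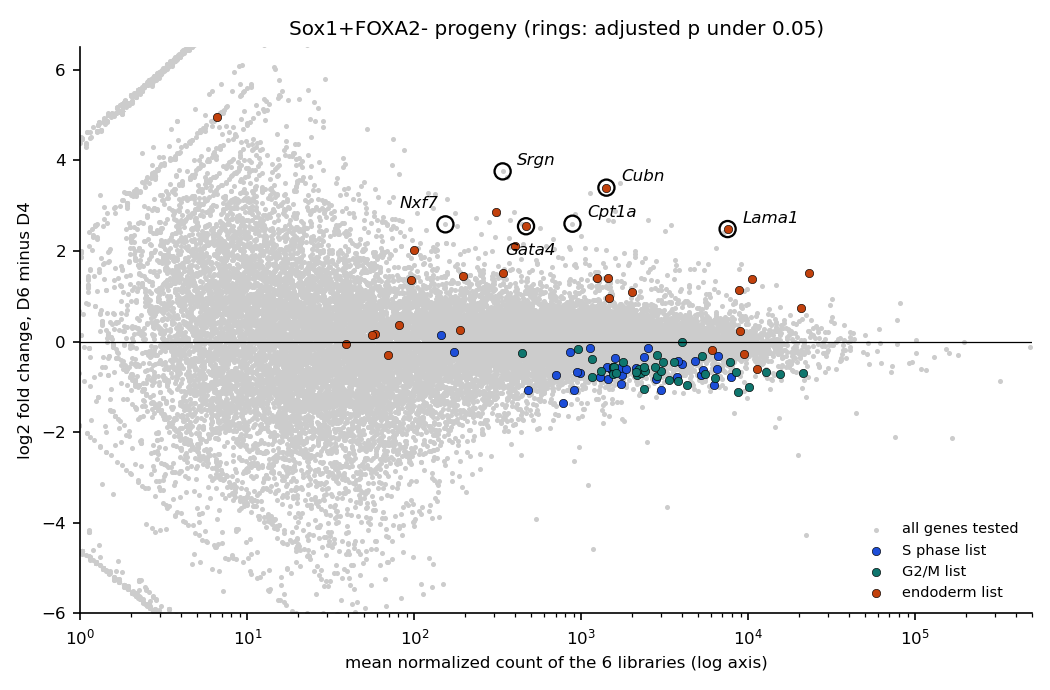
Log2 fold change of D6 against D4 (vertical axis, points beyond its limits not shown) by the mean normalized count of the 6 libraries (log axis) for the genes tested in Sox1+FOXA2- progeny. Rings mark the 6 called genes, between 2.48 and 3.76, and colours mark the endoderm, S phase and G2/M lists, of which S phase and G2/M lie mostly below 0.

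Most genes of an endoderm list of 32 had higher values at D6. Of the 30 that could be tested, 3 rose (Cubn, Gata4 and Lama1), 0 fell and 25 had a log2 fold change above 0, where 48.4% of all genes did. An unadjusted p under 0.05 was reached by 16 members in the higher direction (53.3%, against 3.13% of all genes) and by 0 in the lower direction. The median log2 fold change was 1.37, against -0.01 over all genes, and stayed between 1.00 (without D6 replicate 2) and 1.65 (without D6 replicate 3) under 14 alternative settings. The summed level of the list was 2624, 2431 and 2923 CPM (counts scaled to a common library total) at D4 and 5430, 5727 and 3337 CPM at D6. D6 replicate 3 stood only a little above the D4 libraries, and the other D6 libraries were well above them. At D6 the Sox1-FOXA2+ progeny held 37530 to 64630 CPM of the same genes.

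Among the transcription factors of the list that were not called, Gata6 had 527, 1251 and 584 normalized counts at D4 and 1838, 2627 and 1866 at D6 (log2 fold change 1.40, SE 0.356, adjusted p = 0.267). Sox17 had 0, 327.5 and 103 at D4 and 999, 604 and 384 at D6 (log2 fold change 2.10, adjusted p = 0.636), and Sox7, singled out after its values were seen, had 54.0, 10.3 and 146 at D4 and 805, 448 and 378.5 at D6 (log2 fold change 2.86, adjusted p = 0.179). In all 3 genes the D6 libraries lay above the D4 libraries, and none passed the adjusted threshold. Foxa2 itself, by which the gate was set, gave a log2 fold change of 0.25 with an unadjusted p of 0.669, its D6 libraries lying inside the range of D4.

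The most abundant members of the list encode basement membrane and keratins. Col4a1, a chain of collagen IV, had 19940, 8760 and 7836 normalized counts at D4 and 46620, 42760 and 12800 at D6 (log2 fold change 1.52, adjusted p = 0.317). Its partner chain Col4a2, transcribed from the adjoining locus, had a log2 fold change of 1.37 (adjusted p = 0.375). In both, D6 replicate 3 lay within the range of D4. The laminin gamma 1 chain Lamc1 had 16570, 12470 and 17790 at D4 and 27830, 37950 and 12200 at D6, so that the groups overlapped (log2 fold change 0.74, unadjusted p = 0.059). Krt8, a keratin of simple epithelia, had 16970, 13110 and 11110 at D4 and 5816, 7857 and 13020 at D6, a log2 fold change of -0.61 with overlapping groups. Laminin and collagen IV chains are also made by cells other than endoderm. The plasma protein genes Ttr and Afp, products of visceral endoderm named after their values were seen, were at 0 in all 3 D4 libraries and at no more than 138.8 normalized counts at D6, and neither was called.

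**Figure D3:**
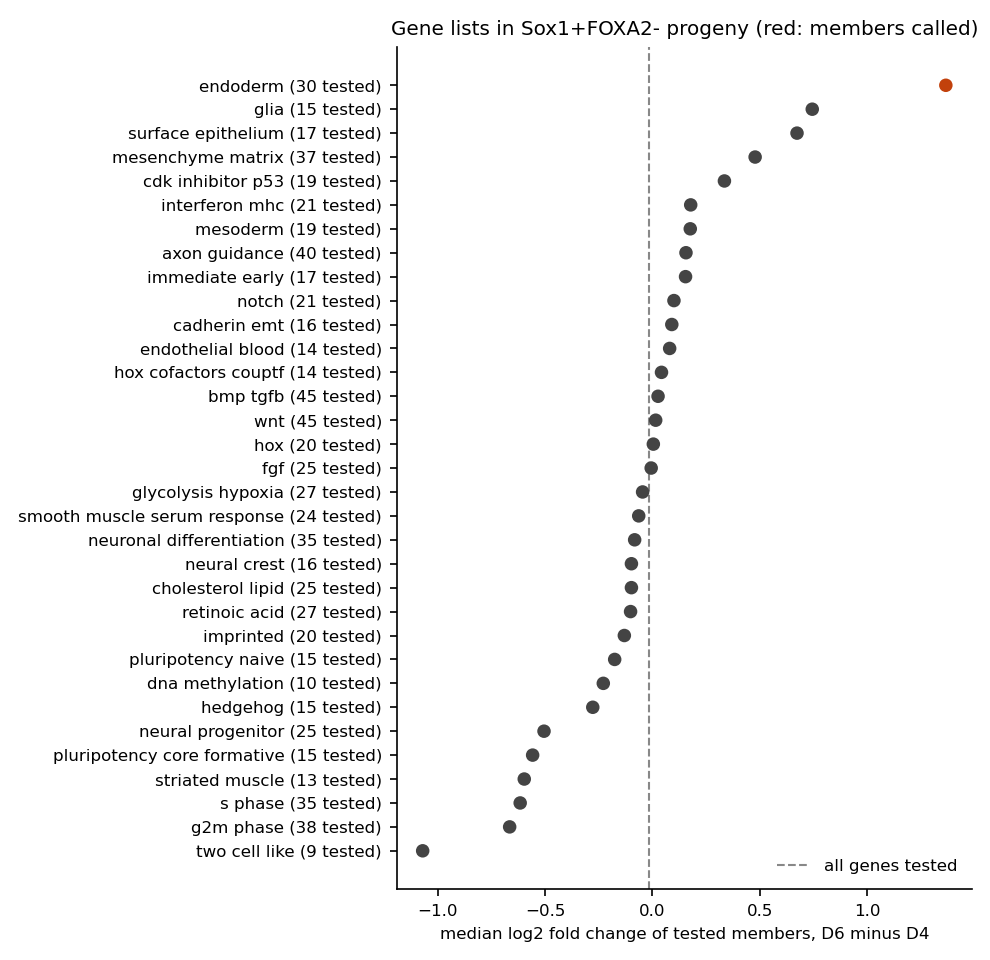
Median log2 fold change of D6 against D4 over the tested members of each of 33 gene lists in Sox1+FOXA2- progeny (points, red where members were called), with a dashed line at the median of all genes tested. The endoderm list has a median of 1.37, and the S phase and G2/M lists have medians of -0.62 and -0.67.

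The levels of the called genes stayed far below those in the progeny of Sox1-FOXA2+ cells, Cpt1a apart. The D6 mean of Cubn was 14.5% of that in Sox1-FOXA2+ progeny, after 0.967% at D4. For Nxf7 the share was 7.14% after 1.3%, for Gata4 4.19% after 1.32%, for Srgn 4.03% after 0.704% and for Lama1 2.87% after 1.45%. In Sox1-FOXA2+ progeny Lama1 ranged from 271600 to 563200 normalized counts at D6 and Gata4 from 13240 to 25140. Cpt1a was the exception, at 83.9% at D4 and 221% at D6, with 680.4 to 706 normalized counts in Sox1-FOXA2+ progeny at D6.

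The same interval was also sampled in the progeny of the other gates, in which 96 genes (0.4%) were called in Sox1-FOXA2+ progeny (42 higher, 0.175%, and 54 lower, 0.225%) and 25 (0.104%) in Sox1+FOXA2+ progeny (24 higher, 0.0999%, and 1 lower, 0.00416%). Without adjustment, 8.21% and 5.76% of genes had a p under 0.05. In Sox1+FOXA2+ progeny, the offspring of cells that carried both reporters, 5 of the 6 genes were called higher as well. The log2 fold change there was 3.71 for Cubn (adjusted p = 7.16e-05), 2.01 for Nxf7, 2.05 for Gata4, 3.23 for Srgn and 2.90 for Lama1 (adjusted p = 0.0115), and 1.29 for Cpt1a, which was not called (adjusted p = 0.572). Cubn reached 5585 to 17710 normalized counts in these D6 libraries, after 610 to 1311 at D4. In Sox1-FOXA2+ progeny none of the 6 was called, with log2 fold changes of -0.51 for Cubn, 0.23 for Nxf7, 0.97 for Gata4, 1.41 for Srgn, 1.26 for Cpt1a and 1.55 for Lama1.

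The difference between changes was tested as an interaction in the same fit. Against Sox1-FOXA2+ progeny, 2 genes (0.00832%) changed differently, and 5.47% of genes had an unadjusted p under 0.05. Cubn rose by 3.91 more on the log2 scale (SE 0.548, adjusted p = 0.00445), and its level in Sox1-FOXA2+ progeny was 20360 to 36070 at D4 and 14150 to 24860 at D6. The other gene was Ecm1, which encodes a secreted glycoprotein of the extracellular matrix and was named after its values were seen. It had 5248, 3359 and 4131 normalized counts at D4 and 15000, 19160 and 7023 at D6 in Sox1+FOXA2- progeny (log2 fold change 1.71, adjusted p = 0.317), with all D6 libraries above D4. In Sox1-FOXA2+ progeny it fell, from 1123 to 4916 at D4 to 344 to 619.5 at D6 (log2 fold change -2.45, adjusted p = 0.0143), so that the changes differed by 4.16 (SE 0.649, adjusted p = 0.0132). For the other 5 called genes the interaction did not pass, with adjusted p from 0.371 for Nxf7 to 0.936 for Lama1. This depended on the processing for 3 of them, since Nxf7 passed with DESeq2 (adjusted p = 0.025), and Nxf7 (0.00162), Gata4 (0.0209) and Srgn (2.47e-05) passed with no filter on low counts.

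Against Sox1+FOXA2+ progeny the interaction called 0 genes in edgeR, with 847 (3.53%) at an unadjusted p under 0.05 and 20 called by DESeq2. The change in Sox1+FOXA2- progeny differed from that in Sox1+FOXA2+ progeny by -0.31 (SE 0.532) for Cubn, 0.58 for Nxf7, 0.49 for Gata4, 0.53 for Srgn, 1.31 for Cpt1a and -0.41 for Lama1 on the log2 scale. A test that misses the threshold does not show that the changes were alike.

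**Figure D4:**
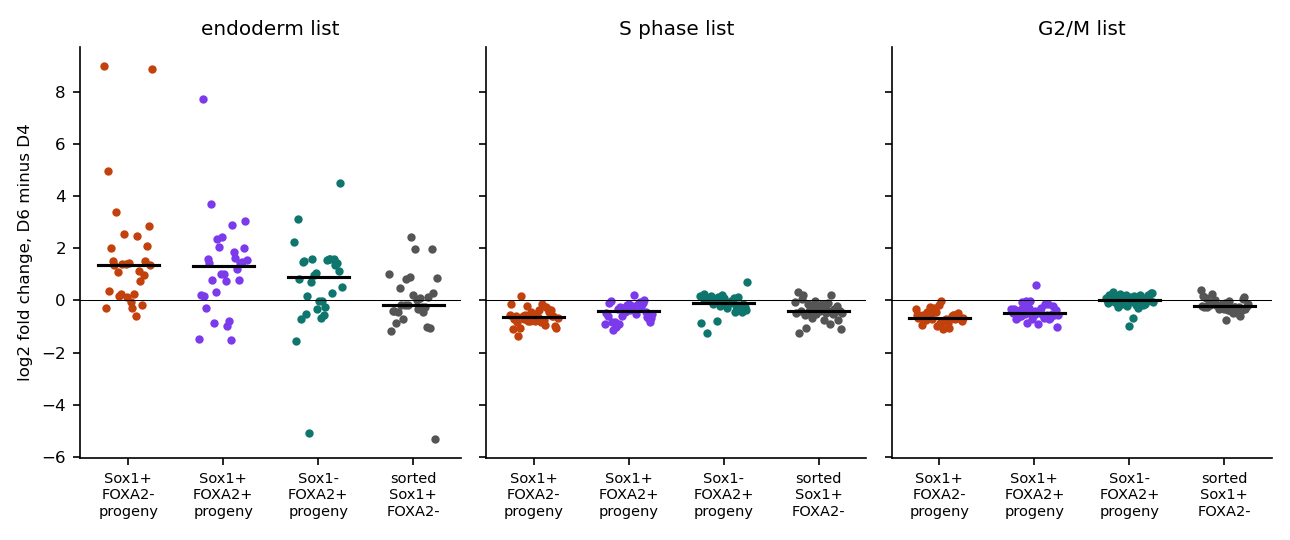
Log2 fold change of D6 against D4 of each tested member (points) of the endoderm, S phase and G2/M lists, with its median (bar), in Sox1+FOXA2- progeny, then Sox1+FOXA2+ progeny, then Sox1-FOXA2+ progeny and in sorted Sox1+FOXA2- cells. The endoderm medians are 1.37, 1.31, 0.89 and -0.17 in that order and those of G2/M -0.67, -0.50, 0.03 and -0.22, and the highest points of Sox1+FOXA2- progeny are Ttr and Afp, which had 0 counts at D4.

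Cells of the same gate that had never been replated were sorted at D4 and D6 from N2B27 with RA. Replating, the change to serum and the sort on the day of harvest, which the progeny did not have, cannot be told apart in this comparison. In the sorted cells 0 of 23465 genes tested were called between the 2 days in edgeR, with 1610 (6.86%) at an unadjusted p under 0.05. Normalized to all 57 libraries, Lama1 had 3578, 1540 and 1316 counts in sorted cells at D4 and 2286, 1762 and 2031 at D6, against 2017 to 3329 in D4 and 5023 to 19930 in D6 progeny. Gata4 had 128, 86.5 and 295 at D4 and 313, 26.9 and 152 at D6 in sorted cells, while D6 progeny held 676 to 1133. The D6 progeny thus lay above the sorted D6 cells in both genes. Cubn had 202, 354 and 1115 at D4 and 684, 1183 and 551 at D6 in sorted cells, and Srgn 245, 188 and 288 at D4 and 238, 124 and 414 at D6.

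The interaction of progeny with sorted cells called 0 genes in edgeR, with 1424 (6.07%) at an unadjusted p under 0.05 and 196 called by DESeq2. Its estimates were 2.97 (SE 0.745) for Cubn, 1.82 for Nxf7, 2.80 for Gata4, 3.94 (SE 1.13) for Srgn, 0.40 for Cpt1a and 2.81 (SE 0.668) for Lama1, each with an adjusted p of at least 0.761. Under other settings some of these passed. DESeq2 called Cubn (adjusted p = 0.0493), Srgn (0.00357) and Lama1 (0.0329), edgeR with no filter called Cubn (0.017) and Lama1 (7.38e-05), and edgeR without sorted D4 replicate 3 called Lama1 (0.0303). Cpt1a was also higher in point estimate in sorted cells, by 2.26 on the log2 scale (adjusted p = 0.716), from 116, 125 and 176 at D4 to 298, 712 and 1175 at D6. The summed endoderm list ran from 976 to 2284 CPM in sorted cells at D4 and from 966 to 1521 CPM at D6, below every progeny library of the gate.

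At D2, the day on which the cells were replated, sorted Sox1+FOXA2- cells had 94.9, 72.9 and 0 counts of Cubn on the same scale, 85.2, 84.6 and 19.5 of Gata4 and 5195, 3325 and 1547 of Lama1. The D6 progeny lay above all 3 D2 libraries for Cubn and Gata4, and D6 replicate 3 of the progeny (5023) did not for Lama1. Srgn had 255.5, 119.9 and 353.6 counts at D2, 23.3, 73.4 and 44.2 in D4 progeny and 1253, 484 and 436.5 in D6 progeny. Its rise thus began from D4 levels below those of D2, and the lowest D6 library was not far above the highest D2 library. For Nxf7 and Cpt1a every D6 progeny library lay above D2, and the D4 progeny did not all lie below it.

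Genes of DNA replication and of mitosis had lower values at D6, none of them past the adjusted threshold. In an S phase list, 1 of 35 tested members had a log2 fold change above 0 (48.4% of all genes did), 16 (45.7%) had an unadjusted p under 0.05 in the lower direction, against 3.5% of all genes, and 0 in the higher. The median was -0.62. In a G2/M list, 0 of 38 members lay above 0, 18 (47.4%) had an unadjusted p under 0.05, and the median was -0.67. The medians stayed between -1.01 and -0.49 for S phase and between -0.98 and -0.49 for G2/M under 14 alternative settings, but without D6 replicate 1 the members at p under 0.05 were 6 and 7 instead of 16 and 18. Summed S phase genes took 2492, 3887 and 4044 CPM at D4 and 1904, 2184 and 3010 CPM at D6. For G2/M the sums were 4997, 6826 and 7553 CPM at D4 and 2981, 4511 and 5274 CPM at D6. In both lists the shallow library D4 replicate 1 lay below at least 1 D6 library, so that the groups overlapped. In a fit without the shallowest library of each day the medians were -1.01 for S phase and -0.98 for G2/M. Beyond that fit, the part of depth in the result was not tested.

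Top2a, the topoisomerase that untangles chromosomes in mitosis, had 22640, 30210 and 25600 normalized counts at D4 and 11130, 19640 and 18110 at D6 (log2 fold change -0.69, unadjusted p = 0.0166). Mki67, which encodes the proliferation marker Ki-67, had 17480, 18960 and 21160 at D4 and 6979, 17020 and 10950 at D6 (log2 fold change -0.73, unadjusted p = 0.015). Cenpf, a kinetochore protein, had 16350, 10560 and 13410 at D4 and 3116, 8736 and 8174 at D6 (log2 fold change -0.997, adjusted p = 0.425). All 3 had every D6 library below every D4 library. The condensin subunit Smc4 gave -0.67, and the S phase genes Hells, a chromatin remodeller, Mcm7, a subunit of the replicative helicase, and Uhrf1, which maintains DNA methylation at replication, gave -0.78, -0.62 and -0.96, each with an adjusted p over 0.05. Rrm1, a subunit of ribonucleotide reductase, gave -0.32 with an unadjusted p of 0.232. In Sox1-FOXA2+ progeny the medians were -0.09 for S phase and 0.03 for G2/M, and in Sox1+FOXA2+ progeny -0.39 and -0.50. These differences between populations were not tested.

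**Figure D5:**
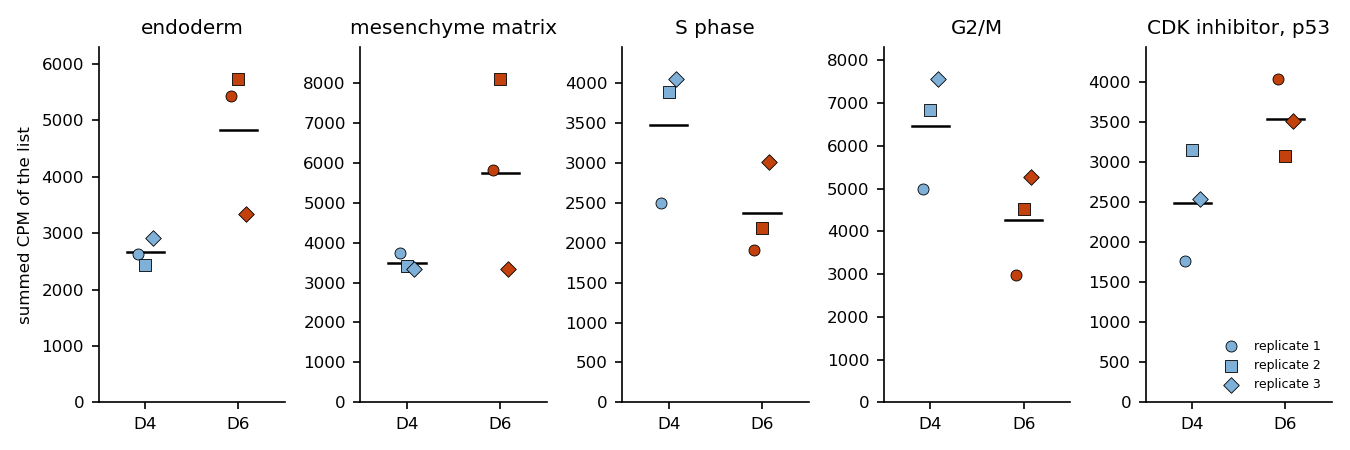
Summed CPM of the endoderm, mesenchymal matrix, S phase, G2/M and CDK inhibitor and p53 lists in the libraries of Sox1+FOXA2- progeny at D4 (blue) and D6 (red), with a marker shape for each replicate number and a bar at the mean. Endoderm sums lie at 2431 to 2923 CPM at D4 and 3337 to 5727 CPM at D6, and the other lists overlap between days.

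Most genes of a list of CDK inhibitors and p53 targets had higher values at D6. Of 19 tested, 16 (84.2%) had a log2 fold change above 0, where 48.4% of all genes did. An unadjusted p under 0.05 was reached by 5 (26.3%, against 3.13% of all genes) in the higher direction and by 0 in the lower. With 0 called, the median was 0.34 (0.21 to 0.61 over the alternatives). Mdm2, the ubiquitin ligase of p53 and itself a target of p53, had 15010, 14060 and 13510 normalized counts at D4 and 26250, 21170 and 16890 at D6 (log2 fold change 0.60, unadjusted p = 0.0318). Cdkn1a, which encodes the CDK inhibitor p21 and was chosen after its values were seen, had 2492, 3338 and 2211 at D4 and 5664, 4530 and 4278 at D6 (log2 fold change 0.84, adjusted p = 0.485). The D6 libraries of both genes lay above those of D4. Ccng1 (cyclin G1) and Trp53inp1, further p53 targets, gave 0.36 and 0.64 with unadjusted p of 0.208 and 0.0517.

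The neural lists held 0 called members. Of 25 tested neural progenitor genes, 9 (36%) lay above 0, where 48.4% of all genes did. An unadjusted p under 0.05 was reached by 2 (8%, against 3.5% of all genes) in the lower direction and by 0 in the higher. The median was -0.51 and stayed below 0 over the alternatives (-0.80 to -0.13). The members summed to 2294 to 4178 CPM at D4 and 2303 to 3420 CPM at D6. Nes had 32870, 19050 and 12400 normalized counts at D4 and 13830, 19740 and 10660 at D6, with wide overlap (log2 fold change -0.51, unadjusted p = 0.161). Pax6 had 540.3, 459 and 222 at D4 and 276, 238 and 261 at D6, where D4 replicate 3 lay below all D6 libraries (log2 fold change -0.63). Plagl1, an imprinted zinc finger gene, gave -0.77 (unadjusted p = 0.0475).

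The genes of neuronal differentiation that had counts, 38 of 44, had a sum of 235 to 259 CPM at D4 and 229 to 256 CPM at D6, against 507 to 646.5 CPM in sorted Sox1+FOXA2- cells at D6. The sum leaves out Tubb3 and Nefl among others, which lie wholly inside another gene and have 0 counts, so that it understates the level of the list by an unknown amount. Of 35 tested, 17 (48.6%) lay above 0, with a median of -0.08. An unadjusted p under 0.05 was reached by 2 (5.71%, against 3.13% of all genes) in the higher direction. In the lower direction it was reached by 4 (11.4%, against 3.5% of all genes). Nefm, the medium neurofilament chain, had 203, 545 and 225 normalized counts at D4 and 1860.0, 1575 and 1525 at D6, with a clear gap between the groups (log2 fold change 2.33, adjusted p = 0.218). Prph, which encodes peripherin, an intermediate filament of peripheral neurons, had 1648, 828.5 and 967 at D4 and 697, 468 and 544 at D6 (log2 fold change -0.99, unadjusted p = 0.0203). The microtubule protein gene Mapt gave -1.08 (unadjusted p = 0.0248). Neuronal filaments therefore had values on both sides of 0, and none was called.

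Among 15 tested genes of glia and their precursors, 9 (60%) lay above 0, where 48.4% of all genes did. At an unadjusted p under 0.05, 3 (20%) were higher and 1 (6.67%) lower, against 3.13% and 3.5% of all genes. The median was 0.74, and 0.16 without D6 replicate 2. Nfia, a transcription factor that opens gliogenesis, had 3404, 1998 and 3755 normalized counts at D4 and 4678, 10750 and 5466 at D6 (log2 fold change 1.19, unadjusted p = 0.0196), and its relative Nfib gave 0.81 (unadjusted p = 0.0793). Of 16 tested neural crest genes, 7 (43.8%) lay above 0, with a median of -0.10, and 2 (12.5%) were higher and 1 (6.25%) lower at an unadjusted p under 0.05. Ets1, a transcription factor of crest and endothelium, had 3526, 4891 and 3301 at D4 and 9195, 7421 and 4952 at D6 (log2 fold change 0.87, adjusted p = 0.543). Sox9, a transcription factor of crest, glia and cartilage, had 4877, 6295 and 3632 at D4 and 2785, 2369 and 1652 at D6 (log2 fold change -1.12, adjusted p = 0.257), and it fell in Sox1-FOXA2+ progeny (log2 fold change -2.37, adjusted p = 0.000195).

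Of 37 tested genes of mesenchyme and its matrix, 28 (75.7%) had a log2 fold change above 0, where 48.4% of all genes did. An unadjusted p under 0.05 was reached by 4 in the higher direction (10.8%, against 3.13% of all genes) and 0 in the lower. The list held 0 called members. The median of 0.48 rested on D6 replicate 2, without which it was -0.05. Their sum was 3733, 3414 and 3333 CPM at D4 and 5815, 8084 and 3327 CPM at D6. D6 replicate 3 was as low as D4, as it was nearest to D4 for the endoderm list. Sparc, a secreted protein that binds collagen, had 18570, 23970 and 21960 normalized counts at D4 and 53910, 46790 and 23760 at D6 (log2 fold change 0.94, unadjusted p = 0.0111), and the collagen gene Col12a1 gave 1.24 (unadjusted p = 0.0144). Col1a1, a chain of collagen I, gave 0.77 with an unadjusted p of 0.241.

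Smooth muscle and serum response genes took 9977 to 13730 CPM at D4 and 9449 to 11140 CPM at D6, against 1300 to 3288 and 1510 to 1875 CPM in sorted cells of the gate. Between the 2 days of the progeny, 11 of 24 (45.8%, against 48.4% of all genes) lay above 0, and the median was -0.06. At an unadjusted p under 0.05, 3 (12.5%) were higher and 2 (8.33%) lower, against 3.13% and 3.5% of all genes. Tpm1, an actin-binding tropomyosin, had 171400, 153400 and 96790 normalized counts at D4 and 98090, 88990 and 84270 at D6, with overlap at D4 replicate 3 (log2 fold change -0.62, unadjusted p = 0.0416). Of 16 genes of cadherins and epithelial to mesenchymal transition, 9 (56.2%) lay above 0, with a median of 0.09. Of the same 16, 4 (25%) were higher and 1 (6.25%) lower at an unadjusted p under 0.05. The mesenchymal cadherin Cdh11 had 2199, 3141 and 1288 at D4 and 5875, 10530 and 3646 at D6 (log2 fold change 1.60, unadjusted p = 0.0124), and N-cadherin, Cdh2, gave 0.72 (unadjusted p = 0.0884).

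Of 15 tested genes of core and formative pluripotency, 3 (20%) lay above 0, where 48.4% of all genes did, and the median was -0.56. An unadjusted p under 0.05 was reached by 3 in the lower direction (20%, against 3.5% of all genes) and 0 in the higher. Lin28a, an RNA-binding protein that blocks let-7 maturation, had 2844, 1941 and 3556 normalized counts at D4 and 489, 637 and 1378 at D6 (log2 fold change -1.75, adjusted p = 0.335). Its paralog Lin28b had 4046, 4217 and 3527 at D4 and 1371, 2117 and 1908 at D6 (log2 fold change -1.13, unadjusted p = 0.0121), and Trim71, a let-7 target, had 8244, 6090 and 10580 at D4 and 4749, 4582 and 5392 at D6 (log2 fold change -0.77, unadjusted p = 0.0084). In all 3 every D6 library lay below every D4 library, as for 5.2% of all genes, and none was called. Sall4 overlapped between days, with 2658, 1046 and 3084 at D4 and 1099, 968 and 2607 at D6 (log2 fold change -0.54, adjusted p = 0.852). Of 15 genes of naive pluripotency 6 lay above 0, with a median of -0.18 that ran from -2.17 to 0.14 over the alternatives. A list of genes of the 2-cell state had a median of -1.07 over 9 tested members, several of them with near-identical copies in the genome that make their counts uncertain. This median ran from -3.13 to -0.52 over the alternatives, with 0 members at an unadjusted p under 0.05. The list summed to 84.8, 55.0 and 98.7 CPM at D4 and 17.4, 5.29 and 82.7 CPM at D6, so that D6 replicate 3 lay within the range of D4.

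The RA pathway list held 27 tested genes, of which 12 (44.4%, against 48.4% of all genes) lay above 0, with a median of -0.10. An unadjusted p under 0.05 was reached by 4 in the lower direction (14.8%, against 3.5% of all genes) and 0 in the higher. Fabp5 and Crabp2, which encode cytosolic carriers of RA and were both chosen after their values were seen, had lower values. Fabp5 had 2175, 2317 and 1500 normalized counts at D4 and 516, 800 and 1018 at D6 (log2 fold change -1.35, adjusted p = 0.196), and Crabp2 had 1932, 1622 and 2613 at D4 and 915, 565 and 570.4 at D6 (log2 fold change -1.60, adjusted p = 0.377). Neither overlapped between days, and both fell in Sox1-FOXA2+ progeny, by 1.98 and 2.35 on the log2 scale (adjusted p = 0.00428 and 0.0189). Stra8, a gene induced by RA in germ cells, had 7572, 512.5 and 4135 at D4 and 276, 754 and 1514 at D6, with overlap at D4 replicate 2 (log2 fold change -2.22, unadjusted p = 0.00973). Of 39 Hox genes, 20 could be tested, 10 (50%) lay above 0, and the median was 0.004. At an unadjusted p under 0.05, 2 (10%) were higher and 1 (5%) lower, against 3.13% and 3.5% of all genes.

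Just short of the adjusted threshold, and named after their values were seen, lay 4 genes. Col14a1, a collagen that coats fibrils, had 270.2, 607 and 251 normalized counts at D4 and 4176, 3045 and 1173 at D6 (log2 fold change 2.88, adjusted p = 0.0633). Serpine2, a secreted protease inhibitor, had 844, 927 and 1348 at D4 and 3457, 4658 and 2644 at D6 (log2 fold change 1.77, adjusted p = 0.0883). Gsn, the actin-severing protein gelsolin, had 2776, 1666 and 1435 at D4 and 6868, 5640.0 and 4739 at D6 (log2 fold change 1.58, adjusted p = 0.0883). Each had its 3 D6 libraries above D4. Lpin1, a phosphatidate phosphatase of lipid synthesis, had 1121, 835 and 595.5 at D4 and 2293, 1930.0 and 1626 at D6 (log2 fold change 1.22, adjusted p = 0.0883). It was called higher in both other progeny populations, with adjusted p of 0.00353 in Sox1-FOXA2+ and 0.014 in Sox1+FOXA2+ progeny.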

How the data were processed

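The authors sequenced SMART-Seq Stranded libraries on an Illumina NovaSeq instrument, aligned the reads with STAR, handled alignments with SAMtools and counted reads per gene with featureCounts on GENCODE M21 (GRCm38). Tool versions and counting options, the strand setting included, are not given in the sources used here. What was deposited is a table of raw counts. Its 92 rows without a gene name sum to 0 counts and were not used.

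Genes were tested with edgeR 4.0.16 in R 4.3.3 (TMM scaling, genes kept by filterByExpr at min.count 10 and min.total.count 15, a prior count of 0.125 for fold changes, quasi-likelihood F-test) in a single fit of the 18 progeny libraries with a mean for each of 6 groups, and the interaction with sorted cells in a fit of 12 libraries. Tests were two-sided. A gene is called where its p, adjusted by Benjamini-Hochberg over all genes tested, is under 0.05. Unadjusted p-values are from the same fit. Normalized counts used size factors of DESeq2 1.42.0 over the 18 progeny libraries, or over all 57 where sorted cells are shown. The limma version was 3.58.1. CPM are a library's counts scaled to the same total over genes.

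Whole-series facts bear on single genes. Of 828 listed genes, 44 had 0 counts in every library, and 39 of these lie wholly inside another gene. The members and the 33 lists were chosen with earlier results of these data known, and lists were described by counts and medians with no test. Genes named were called genes with no overlap between days and a mean of at least 100 in the higher group (up to 12 in each direction), called list members, up to 4 uncalled members of a list by mean count, and Foxa2, Sox1, Pax6, Nes, Gata6 and Sox17. Others are said to be chosen after their values were seen. A result for a single list member is not reported here. The script was tested on simulated counts. Alternatives were DESeq2's Wald test, RLE scaling, no filter, the replicate block, fits of 6 or all 57 libraries, each library left out, and, added after the data were seen, the 6 libraries with the block and leaving out the shallowest library of each day. No 2 libraries were identical. Figures were drawn with Python 3.11.15, pandas 2.3.3, numpy 2.4.6 and matplotlib 3.10.9.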

Additional observations from a re-analysis of the deposited data

Results flagged for a closer look

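Cubn and Ecm1 stood out because their change from D4 to D6 differed between the progeny of Sox1 single-positive and FOXA2 single-positive cells in a test of the difference itself (edgeR's quasi-likelihood test of the interaction, 24025 genes tested). The log2 fold change of Cubn was higher by 3.91 (SE 0.548, adjusted p = 0.00445), at 3.40 in Sox1+FOXA2- and -0.51 in Sox1-FOXA2+ progeny. That of Ecm1 was higher by 4.16 (SE 0.649, adjusted p = 0.0132), at 1.71 and -2.45. In sorted Sox1+FOXA2- cells from D2 to D6, Ecm1 ran from 0 to 310.0 normalized counts on the scale of all 57 libraries, below all 6 progeny libraries of the gate.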

How the results depend on the processing

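The 6 genes called became 118 with DESeq2 (69 higher, 49 lower), 236 with no filter (170 and 66), 12 with the replicate block (12 and 0), 1 in a fit of only the 6 libraries compared and 0 in a fit of all 57 (554 at an unadjusted p under 0.05), and ran from 1 to 43 with a library left out. RLE scaling gave 7, the 6 libraries with the block 7, and leaving out the shallowest library of each day 8. All 6 genes kept their call with DESeq2, RLE, no filter and the block, Cubn alone with the 6 libraries or without D4 replicate 1, and Cubn, Gata4 and Lama1 without the shallowest libraries. Same-numbered D4 and D6 libraries had correlations of -0.113, -0.273 and -0.128 in their deviations over 5000 genes, and 0 of 6 correlated best with their own number. With so few libraries, these values cannot settle whether the numbers pair D4 with D6. The interaction with Sox1-FOXA2+ progeny went from 2 genes to 66 with DESeq2, 124 with no filter and 2 to 10 with a library left out (10 without Sox1-FOXA2+ D6 replicate 1). That with Sox1+FOXA2+ progeny went from 0 to 20 (DESeq2), 31 (no filter) and 0 to 1, and that with sorted cells from 0 to 196, 69 and 0 to 28 (28 without sorted D4 replicate 3). The causes were not tested.

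Signs reversed for Nes (0.019 without the shallowest libraries) and for Foxa2 (-0.275 without D4 replicate 2, and up to 1.08 with another library left out). They also reversed for interaction estimates against Sox1+FOXA2+ progeny with a library left out, which ran from -0.726 to 0.124 for Cubn (0.007 without D6 replicate 3), from -0.690 to 0.097 for Lama1 (0.001 without Sox1+FOXA2+ D6 replicate 1), from -0.226 to 1.13 for Srgn (-0.126 without D6 replicate 1) and from -0.151 to 0.882 for Nxf7. Among named genes over the settings, 60 values gained and 32 lost a call. The shallowest libraries hold 10474804 and 11189529 counts against 40593726 to 81845651 in the others, and the part of depth in the values of low genes was not tested.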

Other observations

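Lists of signalling pathways had 0 members called, where 0.025% of all genes were called. Over all genes, 3.13% were higher and 3.5% lower at an unadjusted p under 0.05, with a median of -0.01. Of 45 tested Wnt genes 3 (6.67%) were higher and 1 (2.22%) lower at that threshold (median 0.02). Of 45 BMP and TGF-beta genes 5 (11.1%) were higher and 3 (6.67%) lower (median 0.03). Of 25 FGF genes 2 (8%) were higher and 0 lower (median -0.01), and of 21 Notch genes 0 and 0 (median 0.10). Of 15 hedgehog genes 0 were higher and 1 (6.67%) lower (median -0.28). Of 40 axon guidance genes, which include cues and receptors used outside the nervous system, 7 (17.5%) were higher and 3 (7.5%) lower (median 0.16). Each of these medians changed sign under at least 1 alternative.

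Lists of other cell types held 0 called members, and their medians lay on both sides of 0. Mesoderm genes summed to 75.4 to 166.7 CPM at D4 and 97.2 to 164.9 CPM at D6, with 0 of 19 at an unadjusted p under 0.05. Endothelial and blood genes summed to 51.7 to 109.8 CPM at D4 and 75.1 to 85.4 CPM at D6. Of 14 tested, 2 (14.3%, against 3.13% of all genes) were higher at an unadjusted p under 0.05. Striated muscle genes summed to 37.1 to 76.0 CPM at D4 and 30.5 to 46.9 CPM at D6. Their median was -0.60 over 13 tested, with 0 at an unadjusted p under 0.05. Surface epithelium genes had a median of 0.67 over 17 tested, of which 12 (70.6%, against 48.4% of all genes) lay above 0. With 0 at an unadjusted p under 0.05, they summed to 330.2 to 709.7 CPM at D4 and 373 to 518 CPM at D6. The groups overlapped in all 4 lists.

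Among lists of metabolism and response, 0 members were called, where 0.025% of all genes were called. At an unadjusted p under 0.05, 3.13% of all genes were higher and 3.5% lower. Cholesterol and lipid synthesis had 0 higher and 3 (12%) lower of 25 at that threshold (median -0.10), and glycolysis and hypoxia 1 (3.7%) and 0 of 27 (median -0.05). Interferon and MHC genes had 2 (9.52%) and 0 of 21 (median 0.18), and immediate early genes 1 (5.88%) and 0 of 17 (median 0.15). Imprinted genes had 1 (5%) and 1 (5%) of 20 (median -0.13). Hox cofactors with COUP-TF factors had 0 and 1 (7.14%) of 14 (median 0.04), and DNA methylation genes 0 and 2 (20%) of 10 (median -0.23).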
